A study of Mus musculus with 12 samples.

Results

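The 8 genes described here restrain mitogen-activated protein kinase (MAPK) signaling. They are the dual-specificity phosphatase genes Dusp1, Dusp2, Dusp5, Dusp6, Dusp10 and Dusp16, the Sprouty gene Spry2 and the Sprouty-related gene Spred1. They were taken by symbol from the 24454 genes of the normalised count table, and 8 of 8 were found and passed the filter for testing, a mean of at least 10 normalised counts over the 12 libraries. All libraries hold RNA of AML blasts, which were fetal liver cells transformed with a retroviral MLL-AF9 fusion coupled to the fluorescent protein Venus, grown in young adult male immunocompromised NSG mice and sorted for Venus from diseased hosts. WT blasts came from wildtype donors and Δβ blasts (Delta beta in the labels) from donors that cannot make STAT3β, the shorter splice isoform of the transcription factor STAT3, while STAT3α is retained. Blasts were taken from spleen (SP) and bone marrow (BM), which gave 4 groups of 3 libraries. NSG hosts lack B, T and NK cells of their own but keep neutrophils and macrophages, and the sources used here do not say whether each library is 1 mouse or how many independent transductions each genotype stands for. The p-values therefore measure the spread between these libraries.

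MAPK cascades pass signals from receptors through Ras and a chain of kinases to ERK, JNK or p38, which enter the nucleus and switch on transcription. Several of the genes switched on in this way encode brakes. The DUSP phosphatases remove the activating phosphates from the kinases themselves, while Sprouty and Spred proteins act further upstream, near Ras and Raf. Because many of these genes are transcribed within minutes of a signal, their RNA levels are often read as a record of recent MAPK activity, and they can also respond to the handling of cells.

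Promoter sequence is shown for the members whose window held a complete element of the kind through which cAMP, stress and growth factor signals reach this class of genes, since the 2 windows differ in the element they carry. The sequences are RefSeq windows of GRCm38.p6, 250 bases before to 50 bases after an annotated start, and 8 of 8 members matched a window. The Dusp16 window belongs to a start 14.4 kb downstream of the 5′ end of the transcript listed for it below, while the other windows sit at the start of the listed transcript. Capitals mark the matches that were searched on both strands, and the windows are written 5′ to 3′ along the gene's own strand, Dusp1 at chr17:26508423-26508722 on the minus strand and Dusp5 at chr19:53528895-53529194 on the plus strand.
Dusp1: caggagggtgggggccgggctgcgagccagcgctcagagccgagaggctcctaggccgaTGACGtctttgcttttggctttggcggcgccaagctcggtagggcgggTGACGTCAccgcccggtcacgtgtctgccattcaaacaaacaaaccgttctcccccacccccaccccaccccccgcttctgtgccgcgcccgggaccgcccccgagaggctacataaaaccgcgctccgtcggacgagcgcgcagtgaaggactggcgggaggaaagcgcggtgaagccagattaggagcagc
Dusp5: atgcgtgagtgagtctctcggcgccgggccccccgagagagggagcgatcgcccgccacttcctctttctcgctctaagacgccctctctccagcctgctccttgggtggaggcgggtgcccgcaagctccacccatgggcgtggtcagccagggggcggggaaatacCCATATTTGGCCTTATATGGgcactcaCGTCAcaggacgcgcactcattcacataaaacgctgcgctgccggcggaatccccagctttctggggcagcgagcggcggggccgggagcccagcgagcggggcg

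The Dusp1 window held the full cAMP response element (CRE) TGACGTCA, which begins at position -143, counted along the strand with the annotated start at 0. Its core TGACG was found at -191, -143 and -140, the last of these on the reverse strand within the full element. The full element was present in 1 of 8 member windows and in 1.79% of all 32851 windows. The core was present in 4 of 8 member windows (Dusp1, Dusp2, Dusp5 and Dusp16) and in 20.8% of all windows. The Dusp5 window held a pair of abutting CArG boxes, the element bound by serum response factor, at -82 and -72, and a core TGACG on the reverse strand at -55. A CArG box was present in 1 of 8 member windows and in 1.63% of all windows. No member window held the STAT element TTCNNNGAA (8.30% of all windows), the AP-1 element TGACTCA or TGAGTCA (5.20%), the ETS element CCGGAAG (8.86%) or an NF-kB element (4.51%). These matches describe letters in a window and not the binding of a factor.

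The libraries held 9001051 to 13859727 reads on genes each, so that 1 read was worth 0.775 to 1.17 normalised counts and a floor of 3 reads 2.33 to 3.50. No library had a member at 0. Stat3 was measured per gene at 2349 to 4430 normalised counts over the 12 libraries, and because its isoforms could not be separated it did not check the genotype. The WT SP libraries stood apart from one another. Pearson's r across genes on the log2 scale was 0.897 between WT SP replicates 1 and 3, 0.943 between 2 and 3 and 0.964 between 1 and 2, against 0.929 to 0.968 in the other groups. The primary granule gene Mpo had 5947, 5256 and 40587 normalised counts in WT SP replicates 1, 2 and 3, and the integrin gene Itgam, which rises with myeloid maturation, had 26293, 21981 and 10941. The fits of the WT SP group are therefore also given without replicate 3 and without replicate 1.

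Per kilobase of the RefSeq transcript, Dusp1 was the member with the highest mean over the 12 libraries, at 2524 ± 2593 normalised counts per kb (SD, n = 12). Dusp2 followed at 254.5 ± 141.7 normalised counts per kb, Dusp6 at 186 ± 275, Spry2 at 93.8 ± 21.7, Dusp16 at 55.9 ± 127, Dusp5 at 45.1 ± 61.8, Spred1 at 26.8 ± 17.4 and Dusp10 at 11.96 ± 4.10. In every neighbouring pair of this order the means lay closer together than the larger SD of the pair. The SDs are large because a few libraries lie far above the rest, as shown in the plot of the members by library.

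**Figure D1:**
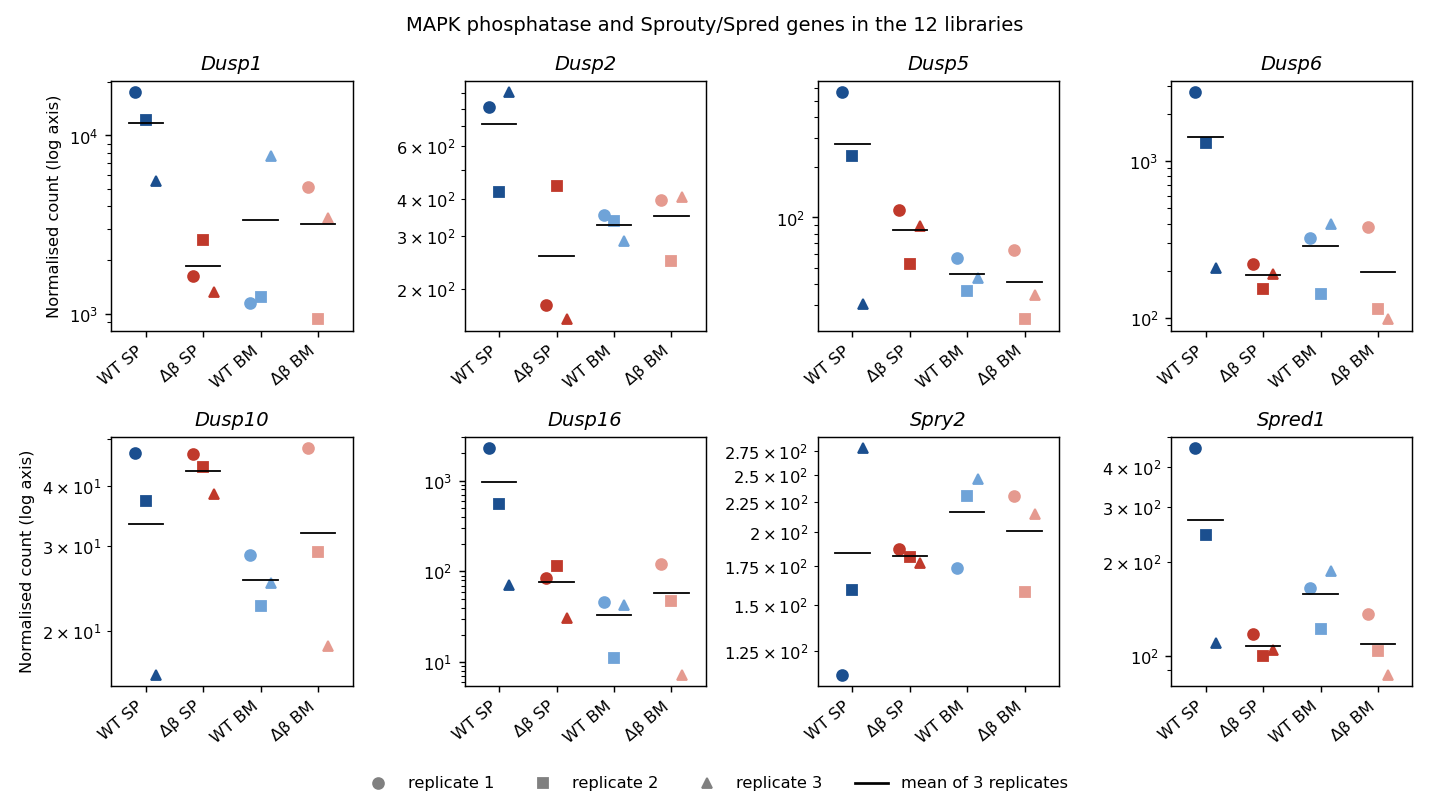
Normalised counts of the 8 members on a log axis, 1 panel per gene, with 1 point per library in the 4 groups (WT and Δβ blasts of SP and BM, 3 replicates each) and a line at each group mean. WT SP replicates 1 and 2 lie above all other libraries in Dusp1, Dusp5, Dusp6, Dusp16 and Spred1, and WT SP replicate 3 lies among the other groups in Dusp5, Dusp6, Dusp16 and Spred1.

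Dusp6 and Dusp5 encode phosphatases that act on ERK, DUSP6 in the cytoplasm and DUSP5 in the nucleus. Dusp6 (RefSeq NM_026268, chromosome 10, 99263231 to 99267489 on GRCm38.p6) had 2733, 1294 and 208 normalised counts in the WT SP libraries (replicates 1, 2 and 3, the order used throughout) against 220, 152 and 190 in Δβ SP. Replicates 1 and 2 of WT SP were above every other library, while replicate 3 lay inside the range of Δβ SP. In BM it had 324, 143 and 396 normalised counts in WT and 379, 114 and 98.4 in Δβ, and these groups overlapped. Dusp5 (NM_001085390, chromosome 19, 53529145 to 53541809) had 562, 233 and 30.4 normalised counts in WT SP against 112, 52.6 and 88.6 in Δβ SP. The highest and the lowest of these spleen values were both WT, and the highest WT SP library exceeded the lowest 18.5-fold. In BM the Dusp5 levels were low in both genotypes, with 57.5, 36.0 and 43.3 normalised counts in WT and 64.1, 24.5 and 34.2 in Δβ.

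Dusp1 and Dusp2 encode inducible nuclear phosphatases, of which DUSP1 acts chiefly on p38 and JNK. Dusp1 (NM_013642, chromosome 17, 26505591 to 26508472) had 17454, 12201 and 5558 normalised counts in WT SP and 1636, 2592 and 1328 in Δβ SP. It was the member whose spleen groups did not overlap, and the mean of WT SP was 6.34 times that of Δβ SP. In BM a single library of each genotype was low or high on its own, with 1141, 1236 and 7623 normalised counts in WT and 5139, 929 and 3438 in Δβ. Dusp2 (NM_010090, chromosome 2, 127336159 to 127338377) had 813, 421 and 906 normalised counts in WT SP against 176, 440 and 158 in Δβ SP. Only the lowest WT library and the highest Δβ library crossed, and WT SP replicate 3, low in Dusp5 and Dusp6, was the highest of all libraries in Dusp2. In BM Dusp2 had 352, 337 and 289 normalised counts in WT and 396, 248 and 404 in Δβ, so the genotypes overlapped.

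Dusp16 and Dusp10 encode phosphatases that act preferentially on JNK and p38. Dusp16 (NM_130447, chromosome 6, 134715468 to 134807063) had 2296, 553 and 71.0 normalised counts in WT SP, a 32.3-fold range within 1 group. The Δβ SP replicates had 83.7, 114 and 31.0 normalised counts of Dusp16, of which 2 lay above WT SP replicate 3. BM levels of Dusp16 were 45.6, 11.3 and 42.3 normalised counts in WT and 120, 46.7 and 7.25 in Δβ, the last of these still above the floor of 3 reads. Dusp10 (NM_022019, chromosome 1, 184034381 to 184075636) had the lowest mean of the members, with 46.7, 37.1 and 16.2 normalised counts in WT SP and 46.5, 43.7 and 38.4 in Δβ SP. In BM it had 28.8, 22.5 and 25.2 normalised counts in WT and 47.8, 29.2 and 18.6 in Δβ. The Dusp10 groups overlapped in both organs.

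Spry2 encodes a Sprouty protein that limits receptor signaling to Ras, and Spred1 a membrane protein that helps neurofibromin to inactivate Ras. Spry2 (NM_011897, chromosome 14, 105891947 to 105896819) had 114, 159 and 278 normalised counts in WT SP and 187, 181 and 177 in Δβ SP. WT SP replicates 1 and 3 stood in the opposite order to that of the ERK phosphatases, replicate 1 being the lowest of all libraries and replicate 3 the highest. In BM Spry2 had 174, 230 and 246 normalised counts in WT and 230, 158 and 214 in Δβ. Spred1 (NM_033524, chromosome 2, 117121071 to 117182279) had 462, 243 and 110 normalised counts in WT SP against 118, 99.7 and 105 in Δβ SP, with WT SP replicate 3 inside the Δβ range. Its BM levels were 165, 122 and 187 normalised counts in WT and 136, 104 and 87.0 in Δβ.

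The first comparison asked how blasts of the spleen differ with loss of STAT3β. In limma's fit of all genes with Benjamini-Hochberg adjustment (called at an adjusted p under 0.05), 0 of 8 members were called, beside 0.105% of all genes (12 of 11476). At an unadjusted p under 0.05, 5 of 8 members were lower in Δβ SP, against 8.96% of all genes, and none was higher. That count was 2 without WT SP replicate 1, without WT SP replicate 2 or without Δβ SP replicate 2. It was 3 without Δβ SP replicate 3 or from the 6 spleen libraries alone, and 6 without WT SP replicate 3. Of all 11476 genes, 1708 passed this p in either direction with all libraries. In the fits above, in the same order, 1011, 1022, 938, 1267, 1257 and 3970 did. The groups did not overlap in 1 member that was lower in Δβ SP, Dusp1, against 9.37% of all genes. The median log2 fold change of the members was -1.33, that of all tested genes -0.014.

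Dusp1 was lower in Δβ SP by a log2 fold change of -2.57 (standard error 0.79, 95% interval -4.31 to -0.84, adjusted p = 0.225 from limma). For Dusp2 the log2 fold change was -1.55 (standard error 0.39, interval -2.42 to -0.68, adjusted p = 0.205). Dusp6 and Dusp16 had log2 fold changes of -2.28 (interval -4.09 to -0.47, adjusted p = 0.275) and -2.73 (interval -5.45 to -0.01, adjusted p = 0.335). For Spred1 the log2 fold change was -1.10 (interval -2.02 to -0.19, adjusted p = 0.283). The remaining members had intervals that included 0, with log2 fold changes of -0.98 for Dusp5 (-2.81 to 0.85), 0.47 for Dusp10 (-0.45 to 1.40) and 0.08 for Spry2 (-0.55 to 0.72). The interval of Spry2 does not reach a log2 difference of 1 in either direction.

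The calls depended on the count model and on 1 library. DESeq2 on the recovered reads called 4 of 8 members lower in Δβ SP, against 2.74% of all genes, namely Dusp6 (log2 fold change -2.89, adjusted p = 0.00433), Dusp2 (-1.44, adjusted p = 0.0211), Dusp16 (-3.64, adjusted p = 0.0474) and Dusp1 (-2.63, adjusted p = 0.0481). edgeR's quasi-likelihood test called 0 of 8 members and only 4 of all genes, with adjusted p-values of 0.193 to 0.206 for the same members. Without WT SP replicate 3, limma called 5 of 8 members lower, at log2 fold changes of -3.04 for Dusp1, -2.16 for Dusp5, -3.34 for Dusp6, -4.06 for Dusp16 and -1.63 for Spred1. In that fit 11.7% of all genes were called lower. Without WT SP replicate 1 no member and only 9 of all genes were called by limma. The log2 fold changes were then -0.07 for Dusp5, -0.60 for Spred1, -1.48 for Dusp6 and -1.56 for Dusp16. Dusp1 and Dusp2 kept log2 fold changes between -3.04 and -2.21 and between -2.01 and -1.28 whichever library was left out.

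**Figure D2:**
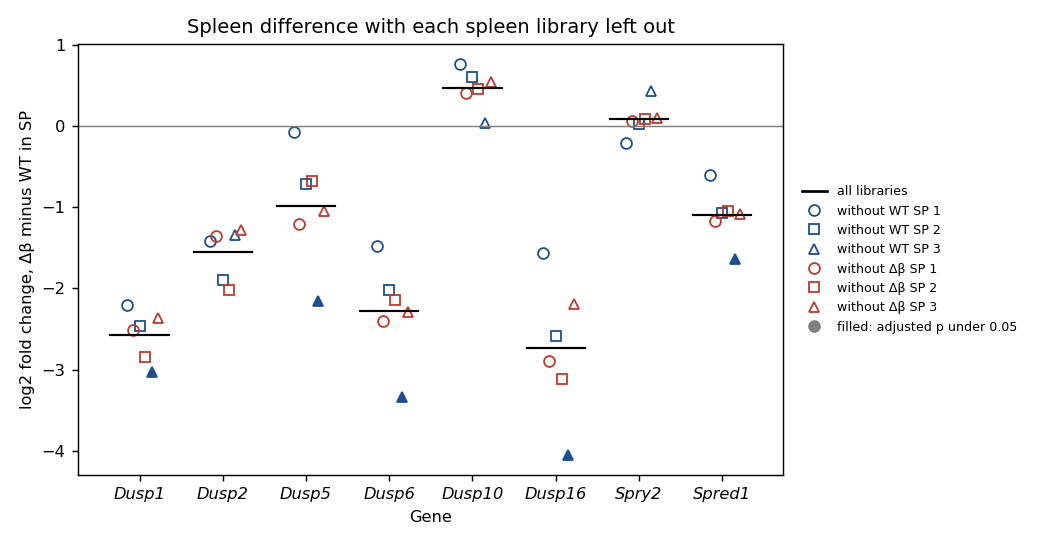
Log2 fold change of Δβ minus WT blasts of SP for each member (vertical axis) with all libraries (bars) and with each of the 6 spleen libraries left out in turn (symbols, filled at an adjusted p under 0.05 from limma). The filled symbols are all fits without WT SP replicate 3, and leaving out WT SP replicate 1 moves Dusp5 to -0.07.

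In BM the genotypes overlapped in all 8 members. None of the 8 members was called (0.0697% of all genes, 8 of 11476), and none passed an unadjusted p under 0.05 (2.59% of all genes) or had groups that did not overlap (7.63% of all genes). The log2 fold changes of Δβ minus WT ran from -0.70 for Dusp6 (interval -2.51 to 1.11) to 0.31 for Dusp16 (-2.41 to 3.03), each with an adjusted p of 0.99997 from limma. The median over the members was -0.02, equal at this rounding to that of all genes. The intervals were narrow for Spry2 (-0.74 to 0.52) and wide for Dusp1 (-1.53 to 1.94) and Dusp5 (-2.07 to 1.59). Those of Dusp5, Dusp6, Dusp10 (-0.71 to 1.15), Spry2 and Spred1 (-1.45 to 0.38) included the log2 fold change of the same gene in the spleen.

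Whether the genotype difference itself differed between the organs was tested as the spleen difference minus the BM difference. No gene was called (0% of 11476), so 0 of 8 members were, while 367 genes passed an unadjusted p under 0.05 and DESeq2 called 3 genes, none of them a member. Dusp2 (-1.62, interval -2.84 to -0.39, adjusted p = 0.926) and Dusp1 (-2.77, interval -5.23 to -0.32, adjusted p = 0.926) were the members with an unadjusted p under 0.05 in limma, 2 of 8 against 1.95% of all genes lower in this way. The intervals of the other members included 0, with -1.58 for Dusp6 (-4.14 to 0.98) and -3.05 for Dusp16 (-6.89 to 0.80). Without WT SP replicate 3 the count of members at an unadjusted p under 0.05 was 6 (1943 of all genes), with -2.64 for Dusp6, -4.37 for Dusp16, -1.92 for Dusp5 and -3.24 for Dusp1. Without WT SP replicate 1 it was 1, Dusp2 at -1.49 (234 of all genes), with -0.78 for Dusp6, -1.87 for Dusp16, 0.16 for Dusp5 and -2.41 for Dusp1.

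A further pair of comparisons set SP against BM within a genotype. They share the same libraries with the genotype comparisons, so each is given for its own values. In WT blasts no gene was called by limma (0% of all genes, with 949 at an unadjusted p under 0.05), and 0 of 8 members were called. At an unadjusted p under 0.05, 3 of 8 members were higher in WT SP (4.36% of all genes), with log2 fold changes of 3.95 for Dusp16 (interval 1.23 to 6.67, adjusted p = 0.580), 2.26 for Dusp1 (0.53 to 3.995, adjusted p = 0.597) and 1.06 for Dusp2 (0.19 to 1.92, adjusted p = 0.597). Dusp16 and Dusp2 had groups that did not overlap, 2 of 8 members against 5.66% of all genes. DESeq2 called Dusp16 (log2 fold change 4.87, adjusted p = 0.00753) and Dusp5 (2.58, adjusted p = 0.0446), with 0.786% of all genes called higher. Without WT SP replicate 3, limma called Dusp5 (2.99), Dusp6 (2.83) and Dusp16 (5.27), with 4.23% of all genes called higher. Without WT SP replicate 1 no gene was called by limma, and so no member. Dusp16 was then the only member with an unadjusted p under 0.05 (395 of all genes). Its log2 fold change was 2.78, with 0.91 for Dusp5, 0.97 for Dusp6, 0.07 for Spred1, 1.90 for Dusp1 and 0.92 for Dusp2. In Δβ blasts 0 of 8 members were called (0% of all genes), 0 passed an unadjusted p under 0.05 (1.77% of all genes, 203 genes) and none had groups that did not overlap (7.42% of all genes). There the log2 fold changes of SP minus BM ran from -0.56 for Dusp2 to 1.07 for Dusp5, and that of Spred1 was -0.00041 (interval -0.92 to 0.91) and changed sign under TMM rescaling.

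**Figure D3:**
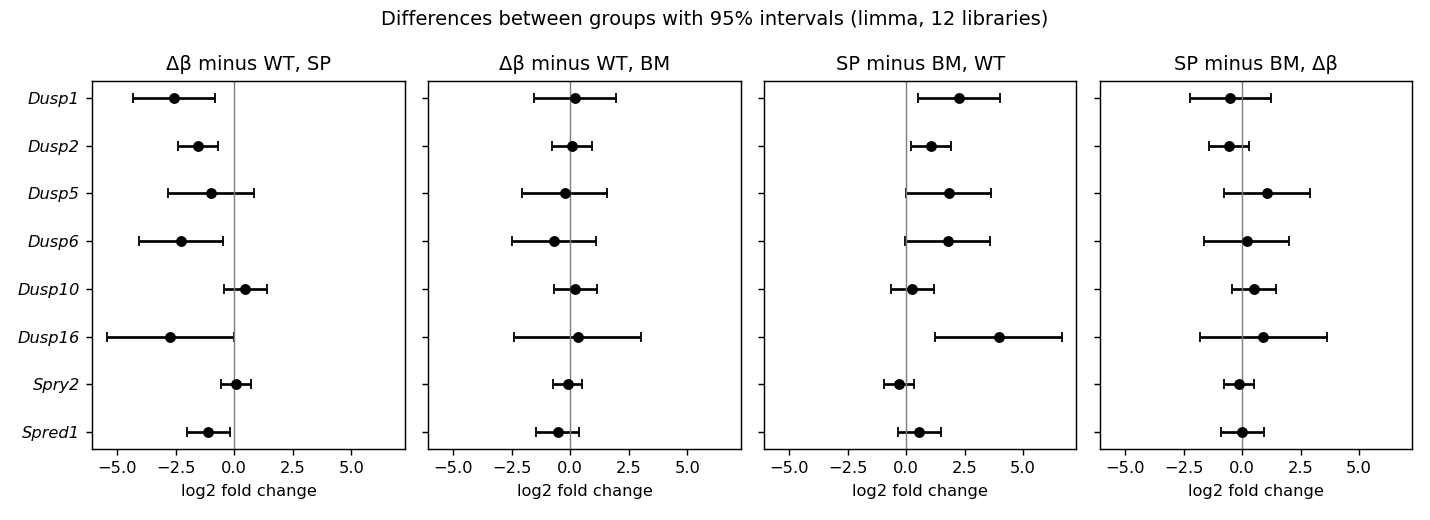
Log2 fold changes of the 8 members with 95% intervals from limma's fit of all 12 libraries, in 4 panels that set Δβ against WT blasts (SP, then BM) and SP against BM (WT, then Δβ blasts). The intervals lie below 0 for Dusp1, Dusp2, Dusp6, Dusp16 and Spred1 in the first panel and above 0 for Dusp1, Dusp2 and Dusp16 in the third, and all include 0 in the other panels.

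Across the 12 libraries the members fell into patterns that can be described by Pearson's r of the log2 values, without a test, since the points share libraries and 2 of them lie far from the rest. Dusp6 and Spred1 had r = 0.964, and Dusp6 had r = 0.884 with Dusp16 and 0.880 with Dusp5. After each value was centred on its group mean, r was 0.961 for Dusp6 with Spred1 and 0.928 with Dusp5, so these genes also varied together between replicates. Dusp10, at a low level, had r of 0.455 with Dusp6 over all libraries but 0.917 after centring. Dusp2 varied differently, with r = 0.423 to Dusp6 and -0.195 after centring. Spry2 ran against the ERK phosphatases, with r = -0.722 to Dusp5 and -0.550 to Dusp6.

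The genes most like each member over the 12 libraries were taken from all tested genes as the 3 with the highest r. Dusp1 was followed by Eif1 (r = 0.973), Klf2 (0.966) and Zfp36 (0.963), the latter encoding an inducible factor that destabilises cytokine mRNAs. Dusp2 was nearest to Ier3 (0.881), Hist1h2bc (0.829) and Plk2 (0.826), lower values than for the other members. For Dusp6 they were Zfand3 (0.981), Diaph1 (0.973) and Map2k3 (0.968), a kinase that activates p38, and for Dusp5 Themis2 (0.962), Sbk1 (0.957) and Itgal (0.956). Dusp16 was nearest to Abi3 (0.975), Il1b (0.968) and Snap23 (0.968), Il1b encoding the inflammatory cytokine interleukin-1β. Spred1 was nearest to Fam32a (0.974), Hmox1 (0.974), which encodes heme oxygenase, and the member Dusp6 (0.964). Dusp10 was nearest to Parp14 (0.933), Trafd1 (0.923) and Zufsp (0.915), and Spry2 to Tmem138 (0.928), Ofd1 (0.925) and Gm5069 (0.907).

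The other genes of the pathway were counted from pathway lists, and no listed gene was called by limma in any of the 5 contrasts. Of 15 other dual-specificity phosphatases, 10 were tested. At an unadjusted p under 0.05, 2 of these were higher in Δβ SP than in WT SP, against 680 of all 11476 genes. The 2 were Dusp9, a cytoplasmic ERK phosphatase (49.7 ± 26.0 against 15.4 ± 1.999 normalised counts, SD, n = 3, log2 fold change 1.51, adjusted p = 0.256), and Dusp19 (75.2 ± 4.86 against 34.2 ± 19.8, log2 fold change 1.27, adjusted p = 0.225). The median log2 fold change of this list was -0.09, beside -1.33 for the members and -0.014 for all genes. Of 5 other Sprouty and Spred genes only Spry1 and Spred2 were tested, and neither passed an unadjusted p under 0.05 in the spleen. Spry4, a common ERK target in other cells, was at or below 1.14 normalised counts in every library.

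Of the 27 genes of the Ras to ERK cascade, all were tested, and 25 had a log2 fold change below 0 in Δβ SP, against 51.9% of all genes, with a median of -0.27. The list summed to 31847 to 45223 normalised counts in WT SP and 30071 to 33169 in Δβ SP, and the lowest WT SP sum lay inside the Δβ SP range. In this list 5 genes were lower and 1 was higher at an unadjusted p under 0.05, against 1028 and 680 of all 11476 genes. The adaptor gene Shc1 had 1231, 1180 and 1275 normalised counts in WT SP and 948, 1000 and 1015 in Δβ SP, a narrow difference (log2 fold change -0.31, adjusted p = 0.262) without overlap. The Ras relative Rras2 had 12.5, 24.4 and 26.4 normalised counts in WT SP and 54.3, 35.8 and 85.4 in Δβ SP (log2 fold change 1.41, adjusted p = 0.284).

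The list of JNK and p38 cascade genes had 19 of 22 genes tested, with a median log2 fold change of -0.32 in the spleen. At an unadjusted p under 0.05, 5 were lower there (8.96% of all genes) and none higher. Mapk14, which encodes p38α, a substrate of DUSP1, DUSP10 and DUSP16, had 5198 ± 499 normalised counts in WT SP and 4030 ± 282 in Δβ SP (log2 fold change -0.37, adjusted p = 0.222). Among the 10 kinases downstream of ERK and p38, 4 were lower at an unadjusted p under 0.05, against 8.96% of all genes. Rps6ka2, which encodes an ERK-activated ribosomal S6 kinase, came nearest to a call, with 2047, 1418 and 926 normalised counts in WT SP and 372, 442 and 527 in Δβ SP (log2 fold change -1.65, standard error 0.26, adjusted p = 0.0508). Unlike Dusp6, Rps6ka2 had all WT SP libraries above all Δβ SP libraries. In BM it had 921 ± 35.2 against 588 ± 141 normalised counts (log2 fold change -0.67, adjusted p = 0.99997).

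A list of ERK output held genes that ERK commonly induces and also Elk1, Elk3, Elk4 and Srf, transcription factors that act downstream of ERK. Of its 14 genes 11 were tested, with 9 below 0 in the spleen (51.9% of all genes) and a median log2 fold change of -0.59. At an unadjusted p under 0.05 (8.96% of all genes lower), 3 of them were lower. These were Etv5, an ETS factor (69.5, 20.1 and 9.13 normalised counts in WT SP, 4.65, 3.36 and 0 in Δβ SP), Ier3 (278, 177 and 368 against 40.3, 140 and 36.3) and Phlda1 (178, 205 and 118 against 45.7, 62.7 and 59.8). None of these 3 had overlapping groups, and their log2 fold changes were -3.09, -2.13 and -1.53 with adjusted p-values of 0.218, 0.166 and 0.223. The Etv5 value depends on the pseudocount, since 1 of its libraries was at 0 and others were near the floor. Myc and Srf, also on this list, differed little, with 782, 805 and 1539 normalised counts of Myc in WT SP and 886, 1546 and 1440 in Δβ SP.

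A list of 19 genes holds immediate early genes, which respond to growth factors, stress and cell handling, and the heat shock genes Hspa1a and Hspa1b, and none of them was called. Of the 19, 17 had a log2 fold change below 0 in Δβ against WT SP, with a median of -1.74. At an unadjusted p under 0.05, 13 were lower (8.96% of all genes), and 11 were lower in groups that did not overlap (9.37% of all genes). Their summed level was 84329 to 96525 normalised counts in WT SP and 16703 to 53407 in Δβ SP. In BM the sum was 17871 to 74334 for WT and 19991 to 42272 for Δβ, so WT SP lay above all other libraries. The heat shock genes were the 2 with a log2 fold change above 0, with 194, 405 and 253 normalised counts of Hspa1a in WT SP against 496, 2169 and 236 in Δβ SP and 104, 336 and 214 of Hspa1b against 780, 3221 and 287, and their groups overlapped. The list's sum was high in WT SP replicate 3 too, unlike Dusp5, Dusp6, Dusp16 and Spred1. Within the list, Klf4 (3884, 2592 and 848 normalised counts in WT SP, 705, 485 and 451 in Δβ SP) and Nr4a1 (10522, 4801 and 507 against 430, 478 and 557) were highest in WT SP replicates 1 and 2 as Dusp6 was. Unlike Dusp6, Klf4 in WT SP replicate 3 still lay above all Δβ SP libraries. Fosb (5002, 5381 and 13182 against 1300, 5237 and 488) and Jun (10625, 16657 and 24722 against 4622, 10748 and 2093) were highest in replicate 3 as Dusp2 was. Nr4a1, Fosb, Jun and the heat shock genes were picked after their values were seen. The part of handling in the member differences was not tested.

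**Figure D4:**
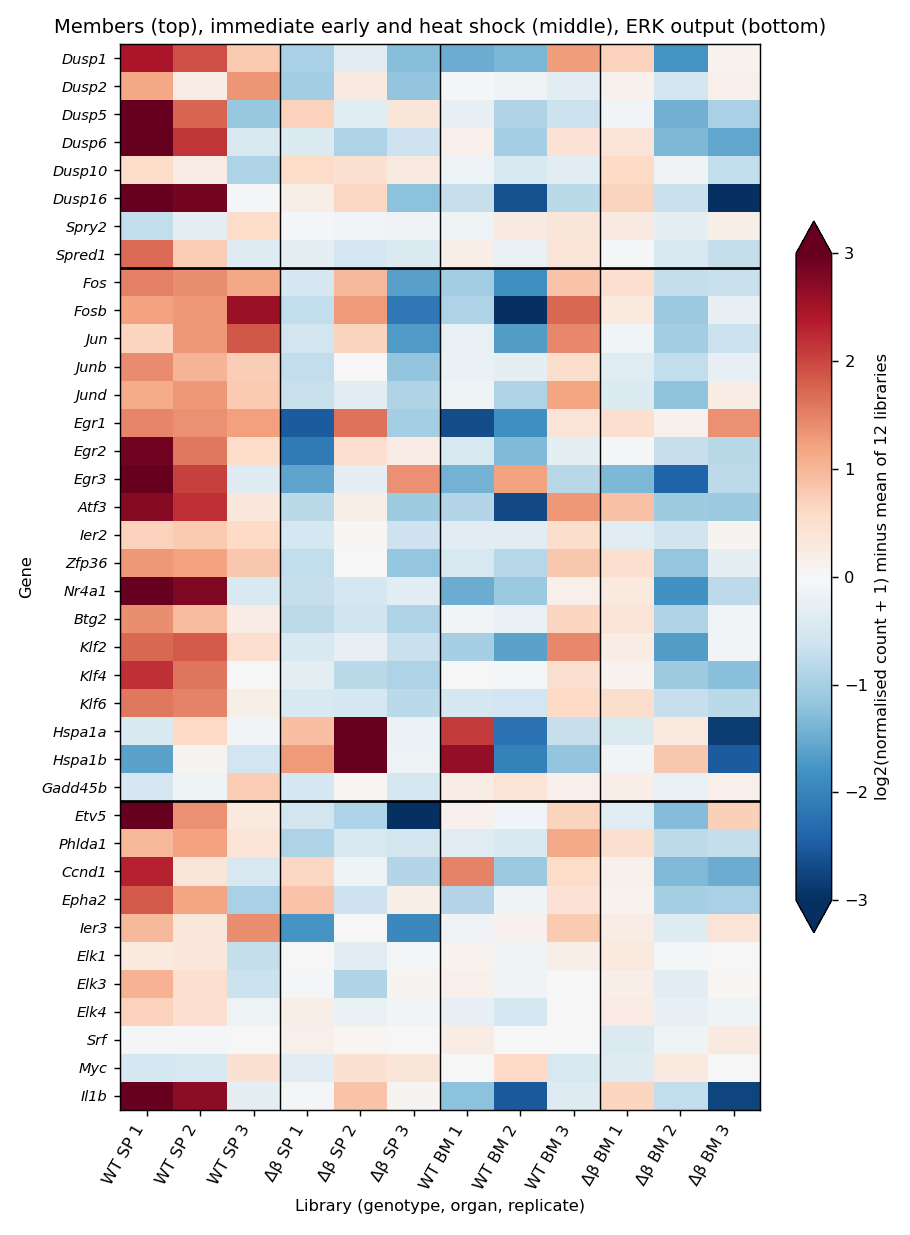
Log2 normalised counts (plus 1) of the members, the 19 immediate early and heat shock genes and the 11 tested ERK output genes in the 12 libraries, each as its difference from the gene's mean over the libraries (color scale from -3 to 3, values beyond it shown at its ends). WT SP replicates 1 and 2 are high for Dusp6, Dusp16, Nr4a1, Klf4 and Il1b together, whereas WT SP replicate 3 is high for Dusp2, Fosb, Jun and Ier3.

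Some markers of mature neutrophils and macrophages had high values in WT SP libraries. Blasts that mature can also express such markers, and RNA of blasts and of host cells was not told apart. All 9 mature neutrophil markers were tested and had log2 fold changes below 0 in Δβ against WT SP, with a median of -1.16. At an unadjusted p under 0.05, 1 of them was lower, against 8.96% of all genes. The 9 markers summed to 138790, 242870 and 101960 normalised counts in WT SP replicates 1 to 3 and to 65882 to 77071 in Δβ SP. In BM they summed to 84099 to 283000 for WT and 56160 to 169510 for Δβ. The neutrophil surface gene Ly6g had 606, 491 and 60.9 normalised counts in WT SP replicates 1, 2 and 3 and 68.2 to 151 in Δβ SP. In WT SP replicate 3, Ltf, Mmp8, Mmp9, Cxcr2 and Retnlg were likewise within or below the Δβ SP range. S100a8 (35913), S100a9 (39549) and Camp (22751) were above all Δβ SP libraries there. WT BM replicate 3 had the highest neutrophil sum. It also had the highest sum of the immediate early and heat shock list outside WT SP, 74334 normalised counts. Dusp1 had 7623 normalised counts there, the highest outside WT SP, and Dusp6 396, the highest outside WT SP replicates 1 and 2. Dusp16 had 42.3 there, which lay among the other BM libraries. Of 10 macrophage markers 3 were tested in the spleen, 2 with a log2 fold change below 0 and 1 above, and all 10 summed to 3016 to 8588 normalised counts in WT SP and 3099 to 4736 in Δβ SP, and in BM to 5736 to 8365 for WT and 3855 to 4998 for Δβ. C1qa and C1qb had 14.8 and 30.8 normalised counts in WT SP replicate 1 and were at or below 4.27 in all other libraries, and Spic and Cd5l were at or below 3.42 throughout. Marco had 14.8, 21.2 and 12.2 normalised counts in WT SP, 0 in each Δβ SP library and at most 2.34 in BM. Mrc1 had 12.5, 0 and 7.10 in WT SP against 2.14 to 6.98 in Δβ SP, and C1qc was at or below 5.70 throughout. Hmox1 had 3925, 1402 and 314 normalised counts in WT SP and 167 to 300 in Δβ SP, Adgre1 had 3881, 3385 and 1733 against 2103 to 2582, and Vcam1 had 699, 1291 and 946 against 760 to 2410. In bulk RNA a smaller share of a cell type, less RNA per cell and a less mature state of the blasts cannot be told apart. The part of each in the member differences was not tested.

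The blast label was checked against 11 blast markers, which were all tested, and none was at 0 in any library. Hoxa9, the homeobox gene maintained by MLL fusions, was between 798 and 3410 normalised counts, lowest in WT SP replicate 1. That library was also the lowest of all in Hoxa10 (88.9, next 344), Meis1 (516, next 1103), Myb (2842, next 5439) and Kit (439, next 450.3). The other blast markers did not share this. Mef2c (4420, next 4100) and Itgam (26293, next 21981) were highest of all in that library, and Cd34 and Flt3 neither lowest nor highest. Elane (12215, lowest 11112) and Mpo (5947, lowest 5172) were low there without being the lowest. Globin genes were at 0 in every library. T cell markers were summed at 112 normalised counts in Δβ SP replicate 1 and 328 in Δβ BM replicate 1 and at 32.0 or below in all others. In those 2 libraries Dusp2, which is also known from activated lymphocytes, had 176 and 396 normalised counts, inside the range of the other Δβ libraries.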

How the data were processed

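RNA of Venus-sorted MLL-AF9 blasts was sequenced from poly-A libraries in 12 samples, and the labels' genotype and organ define the 4 groups. The authors deposited, for 24454 genes, a signal value, the reads counted on a gene over the library's size factor, and per the labels FastQC, STAR, featureCounts and DESeq2 were run on GRCm38 (mm10), with versions not given in the sources used here. Divided by the value of 1 read, the values of each library came out whole (100% of values, tolerance 1e-06), so whole reads were recovered. Poly-A selection and division by 1 factor mean that values compare libraries and, only per kilobase, genes. The table also held 6 columns that no label describes, which were not used.

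log2(normalised count + 1) was tested for 11476 genes (mean normalised count 10 or more) by limma 3.58.1 in R 4.3.3 (eBayes with trend after lmFit, 1 mean per group, Benjamini-Hochberg over all genes, called at an adjusted p under 0.05) for 5 contrasts. The fold changes understate those of low genes. The members and lists were chosen with earlier results of these data known. The 8 members were always named, with any called listed gene or up to 3 per list and contrast with the largest log2 fold change among those whose groups did not overlap, and the 3 genes most correlated with each member. Other genes were chosen after their values were seen. The scripts were tested on simulated data.

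Library depth was 9001051 to 13859727 reads on genes, and floors of 3 reads cover counting error only. Alternatives were pseudocounts of 0.25 and 4, no filter, a minimum mean of 50, TMM, edgeR 4.0.16 (quasi-likelihood) and DESeq2 1.42.0 on the recovered reads, a replicate block, the 6 libraries of a contrast alone and each library left out. Samples of the same replicate number in Δβ SP and Δβ BM deviated together (r = 0.664, 0.608 and 0.634 across genes), so the numbers pair these libraries, while the labels do not say what they share. In WT the same r was -0.009, -0.039 and -0.237, and between genotypes -0.166 to 0.202. The replicate block used the number across genotypes in the genotype contrasts and within each genotype in the other contrasts. Outside the Δβ libraries it therefore rests on numbers that were not seen to pair libraries.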

Additional observations from a re-analysis of the deposited data

How the results depend on the processing

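Of 40 member fold changes (8 genes in 5 contrasts), each refitted under up to 21 alternatives, 29 of the refits changed sign, 14 became called and 784 kept their direction and their side of the threshold. Under settings that kept all libraries, sign changes were those of Dusp1 in BM (-0.068 with edgeR, -0.083 with DESeq2), Dusp6 in the Δβ organ contrast (-0.059 with edgeR, -0.047 with DESeq2) and Spred1 in the Δβ organ contrast (0.0095 with TMM). A minimum mean of 50 gave no value for Dusp10, which was then not tested.

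Genes called in Δβ against WT SP numbered 12, and 1 with a pseudocount of 0.25, 5 without a filter, 2 with a minimum mean of 50, 3 with TMM, 4 with edgeR, 457 with DESeq2, 2 with the replicate block, 2 from the 6 libraries alone and 1 to 1884 with a library left out, the last without WT SP replicate 3. In BM 8 genes were called, and 37 with DESeq2, 5 with the replicate block, 3 from the 6 libraries alone and 1 to 13 with a library left out. In WT SP against BM 0 were called, and 111 with DESeq2 and 0 to 598 with a library left out. DESeq2 called 2 genes in the Δβ organ contrast and 3 in the difference of effects. Members called were 4 (SP) and 2 (WT organ contrast) with DESeq2, and 0 to 5 and 0 to 3 with a library left out, again without WT SP replicate 3. The replicate block called 0 members in every contrast, changed no member's call and called 0 genes in the Δβ organ contrast, where the numbers pair the libraries. The causes were not tested.

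With a library left out, values that changed sign ranged from -0.21 to 0.43 for Spry2 in SP, in BM from -0.30 to 1.10 for Dusp1, -0.053 to 0.30 for Dusp2, -0.61 to 0.064 for Dusp5, -0.11 to 0.54 for Dusp10, -0.55 to 1.38 for Dusp16 and -0.26 to 0.054 for Spry2, from -0.041 to 0.69 for Dusp10 in the WT organ contrast, in the Δβ organ contrast from -0.17 to 0.80 for Dusp6, -0.16 to 1.77 for Dusp16 and -0.15 to 0.17 for Spred1, and in the difference of effects from -1.92 to 0.16 for Dusp5, -0.18 to 0.59 for Dusp10 and -0.10 to 0.54 for Spry2. None of these values was called. All members were above the floor of 3 reads in every library. The lowest was Dusp16, with 7 reads in Δβ BM replicate 3 and 10 in WT BM replicate 2. Its fold changes that use BM rest partly on these low counts. For all members, 3 libraries a group set the precision.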
